A study of Homo sapiens with 9 samples.

Results

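The plasminogen activation system was followed through 5 of its genes in SW480 colorectal carcinoma cells. The genes were PLAU, PLAT, PLAUR, SERPINE2 and SERPINB5, and their members on the array were all probe sets annotated to exactly 1 of these symbols. There were 10 such probe sets among 54675, of which 9 passed a filter on low signals and stood for all 5 genes. The filter kept a probe set that lay above its array's median on at least 3 of the 9 arrays. Where a gene has several probe sets, they are called the first, the second and the third from the highest to the lowest mean over all arrays, and the first stood for the gene in the test over genes.

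Expression arrays were made from 3 groups of cultured human cells, with 3 biological replicates each. SCP51 was a line grown from a single cell of SW480/EGFP and classed as highly metastatic after orthotopic implantation in mice. SCP58 was another line grown from a single cell of the same parent and classed as poorly metastatic. The parent, SW480/EGFP, was SW480 itself, a colorectal carcinoma line, carrying EGFP, and all 3 groups share that background and the same culture medium. Each metastatic class was 1 clone, so a difference given here is one between lines. The labels call the replicates biological without saying whether their cultures were kept apart, so that p-values cover the spread of these arrays, which may be technical.

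Plasmin is a broad protease that degrades fibrin and matrix proteins and releases or activates growth factors. It is cut from plasminogen by urokinase, the product of PLAU, and by tissue-type plasminogen activator, the product of PLAT. Urokinase is concentrated at the cell surface by its glycolipid-anchored receptor, the product of PLAUR, and in colorectal tumours both are known from the invasive margin. SERPINE2 encodes protease nexin-1, a secreted serpin that inhibits urokinase, plasmin and thrombin, and SERPINB5 encodes maspin, a serpin that does not inhibit proteases by the usual serpin mechanism.

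The epithelial label was checked against markers. Of 11 markers of colorectal epithelium, 8 lay above the array median on all 9 arrays, while KRT20 (signal 16.2 to 35.0) and LGALS4 (at most 18.4), both of differentiated colon cells, lay below it on every array. CDH17 (12.4 to 50.7) lay above the median on only 3 arrays. EPCAM, KRT8, KRT18 and KRT19 read 2554 or more and CDH1 459 to 882. CDX1 (80.0 to 106), CDX2 (45.5 to 58.2) and VIL1 (107 to 130) lay much closer to the median. The 11 markers summed to 18966 to 24568.5 in SCP51, 19317 to 21250.6 in SCP58 and 20084.7 to 21125.9 in the parent. Of the fibroblast, leukocyte and endothelial markers, 1 in each list lay above the median on all arrays. These were COL1A1 (126 to 172), CD3E (71.9 to 90.8) and VWF (61.7 to 88.2), all above CDX2, so that the median alone does not separate the lists. Summed over the list, the 5 endothelial markers gave 181 to 218 in SCP51, 201 to 226 in SCP58 and 200.2 to 233 in the parent, with CDH5 at 4.98 to 11.9. The 6 fibroblast markers gave 279.9 to 326, 280.3 to 326 and 325 to 345 in the same order, with COL3A1 at most 23.2 and LUM at most 18.8, and the 4 leukocyte markers with a probe set gave 153 to 202, 185 to 193 and 190.2 to 209. One array, SCP51 replicate 1, stood apart from the rest. Its correlations with the others across genes lay between 0.891 and 0.911, against 0.945 to 0.979 among the other 8 arrays, and its trimmed mean signal was 125, against 142 to 149.7. The differences of the 5 genes in SCP51 are therefore also given without it.

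The windows around the start sites of PLAU and PLAUR are shown because PLAU held the 1 called member probe set and because transcription factors of both promoters are among the genes described further on. RefSeq windows of assembly GRCh38.p14, from 250 bases before to 50 bases after a start site, were found for 4 of the 5 genes (6 windows). Capitals mark matches to TGANTCA (AP-1), GGGCGG (the GC box bound by SP1), GCCNNNGGC (AP-2) and GGGNGTGG (KLF factors), searched on both strands. Only exact matches were counted, N being any base, so that a window without a match may still hold a variant site. The first sequence is PLAU, chr10:73910882-73911181, plus strand, and the second is PLAUR, chr19:43670120-43670419, minus strand.
PLAU: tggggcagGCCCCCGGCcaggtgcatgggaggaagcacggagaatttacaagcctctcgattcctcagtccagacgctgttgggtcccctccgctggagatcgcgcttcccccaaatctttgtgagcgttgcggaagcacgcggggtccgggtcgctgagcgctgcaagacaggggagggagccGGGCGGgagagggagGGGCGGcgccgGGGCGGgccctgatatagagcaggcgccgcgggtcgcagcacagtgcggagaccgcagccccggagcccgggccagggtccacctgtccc
PLAUR: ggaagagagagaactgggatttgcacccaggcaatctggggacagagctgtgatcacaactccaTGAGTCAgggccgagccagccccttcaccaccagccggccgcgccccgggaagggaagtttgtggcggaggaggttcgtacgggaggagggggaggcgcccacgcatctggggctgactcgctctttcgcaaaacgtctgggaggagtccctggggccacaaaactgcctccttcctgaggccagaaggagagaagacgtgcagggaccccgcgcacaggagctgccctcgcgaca
The PLAU window held 3 GC boxes, at positions -66, -51 and -40 from the start site, and 1 AP-2 match at -242. Its other RefSeq window, upstream, held none of these motifs. The PLAUR window held 1 AP-1 match at -186 and none of the other 3. Of 35116 windows of the same length, 45.0% held a GC box, 23.2% an AP-2 match, 17.2% a KLF match and 7.71% an AP-1 match. The ETS core GGAAG, not capitalised, occurred 3 times in the PLAU window and 4 times in the PLAUR window, and in 71.9% of all windows. None of these motifs overlapped another in either window.

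PLAU, the urokinase gene, lay below the parent in SCP51 on both of its probe sets, and 1 of them passed the test. On the second probe set the signal was 154, 169.9 and 139 on the SCP51 arrays, 264, 173 and 193 on the SCP58 arrays and 428, 326 and 453 on the parent arrays. The 3 groups did not overlap, with SCP51 lowest and the parent highest. Tested with limma over every probe set (29132), SCP51 stood at a log2 difference of -1.37 ± 0.20 from the parent (SE, n = 3 per group; adjusted p = 0.0128), a signal 2.59-fold lower in SCP51, where 1.9% of all probe sets were called. SCP58 stood at -0.95 ± 0.20 from the parent (adjusted p = 0.186) and SCP51 at -0.43 ± 0.20 from SCP58 (adjusted p = 0.282), neither of which passed the threshold of 0.05. In bulk RNA a lower signal per cell and a smaller share of expressing cells in a line cannot be told apart.

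On the first PLAU probe set the signal was 171, 242 and 340.5 in SCP51, 314, 334 and 289 in SCP58 and 349, 418 and 442 in the parent. The SCP51 arrays spread widely, and their highest value lay above all 3 values of SCP58 and just below the lowest of the parent. Over genes, PLAU stood at -0.73 ± 0.23 in SCP51 against the parent (95% interval -1.26 to -0.20; adjusted p = 0.141), at -0.36 ± 0.23 in SCP58 against the parent (adjusted p = 0.804) and at -0.37 ± 0.23 in SCP51 against SCP58 (adjusted p = 0.406). With the mean of both probe sets the first of these was -1.05 ± 0.16 and passed (adjusted p = 0.0119, where 2.19% of genes were called). The probe sets correlated over the 9 arrays with r = 0.66, a description of arrays that share their groups.

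The call on the second PLAU probe set was lost when either of 2 parent arrays was left out. Its adjusted p was 0.0712 without parent replicate 1 and 0.0732 without parent replicate 3, with differences of -1.32 and -1.28. Without SCP51 replicate 1 it was -1.37 (adjusted p = 0.0154). On the first PLAU probe set, leaving out SCP51 replicate 1 gave -0.48 against the parent (adjusted p = 0.152), and leaving out SCP51 replicate 3 gave -0.98 (adjusted p = 0.0364). Between SCP51 and SCP58 that probe set stood at -0.12 without SCP51 replicate 1 (adjusted p = 0.731) and at -0.62 without SCP51 replicate 3 (adjusted p = 0.112), so that the size of this difference depended on which SCP51 array was left out.

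**Figure D1:**
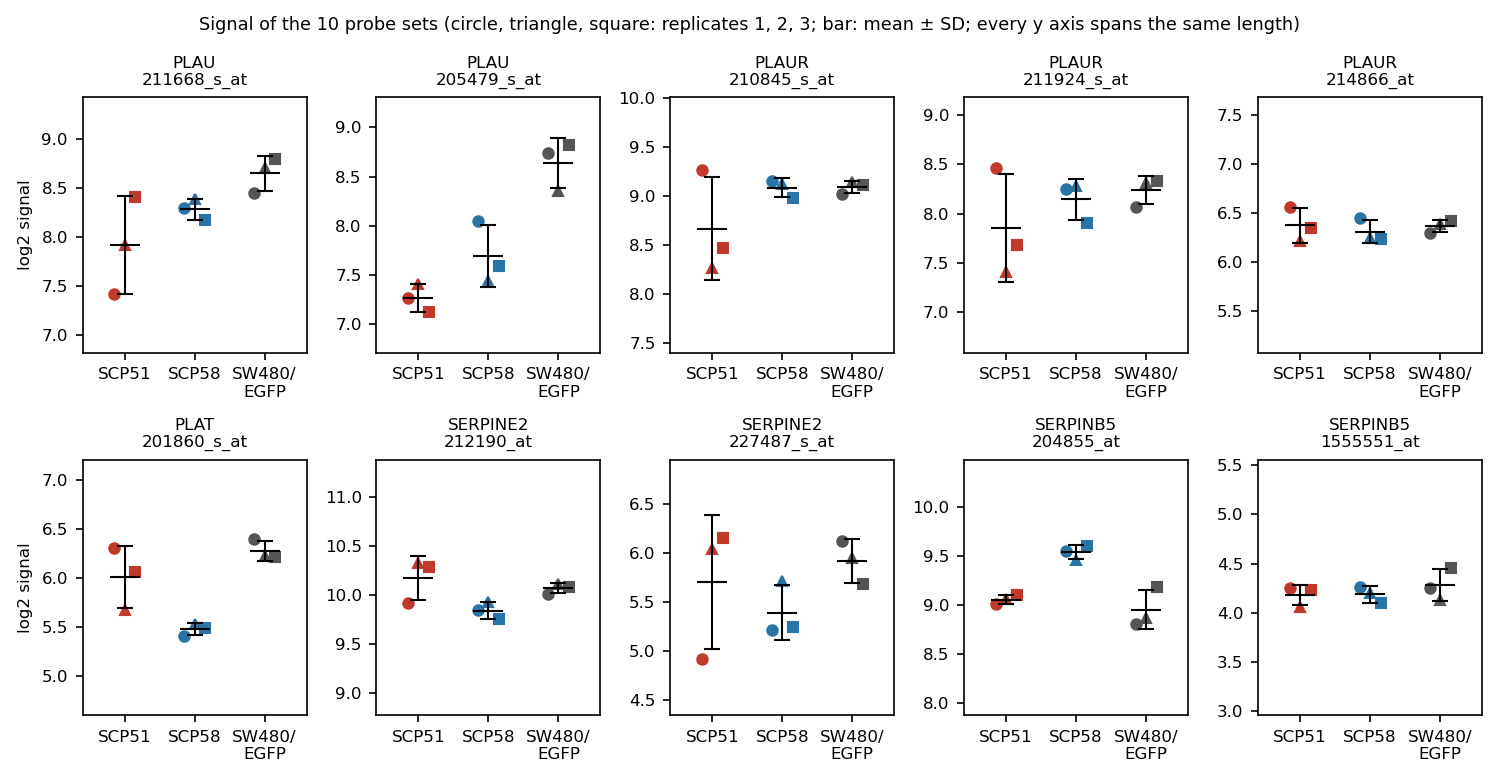
Log2 signal of the 10 member probe sets (y axis, log2 units, the same span in every panel) in SCP51, SCP58 and SW480/EGFP (x axis). Points are arrays, circles, triangles and squares being replicates 1, 2 and 3, and bars are the mean ± SD. Probe sets of a gene run from the first to the last. The 3 groups separate on the second PLAU probe set, while on the first and second PLAUR probe sets SCP51 replicate 1 lies above the other 2 SCP51 arrays.

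PLAT, the gene of tissue-type plasminogen activator, was measured by 1 probe set that lay close to the array median. Its signal was 78.9, 51.3 and 66.6 in SCP51, 42.6, 46.3 and 45.1 in SCP58 and 84.3, 74.7 and 74.2 in the parent. The SCP58 arrays were the 3 lowest and overlapped with neither other group, whereas SCP51 and the parent overlapped. SCP58 stood at a log2 difference of -0.80 ± 0.16 from the parent (95% interval -1.16 to -0.44; adjusted p = 0.148). SCP51 stood at 0.53 ± 0.16 from SCP58 (adjusted p = 0.0991) and at -0.27 ± 0.16 from the parent (adjusted p = 0.377). Without SCP51 replicate 1 these were 0.39 ± 0.15 (adjusted p = 0.138) and -0.41 ± 0.15 (adjusted p = 0.142), and without SCP51 replicate 2 the difference from the parent was -0.098 (adjusted p = 0.709). The difference between SCP58 and the parent passed without SCP51 replicate 1 (adjusted p = 0.0444). That array is in neither group, and leaving it out changed the shared spread, the genes tested and the adjustment over them. With 32 added to the signal before log2 the difference between SCP58 and the parent was -0.52 (adjusted p = 0.165).

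PLAT lies on chromosome 8 between the measured genes AP3M2 and IKBKB-DT. Of its 3 nearest measured neighbours on each side, ANK1, KAT6A, AP3M2, IKBKB-DT, IKBKB and POLB, none was called in any comparison. Their differences of SCP58 from the parent lay between -0.15 and 0.05, and those of SCP51 from SCP58 between -0.15 and 0.25. The PLAT difference of SCP58 from the parent lay outside the range of these 6 genes.

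PLAUR, the urokinase receptor gene, was measured by 3 probe sets, and its level in SCP51 depended on 1 array. On the first the signal was 617, 309 and 354 in SCP51, 569.6, 559 and 504 in SCP58 and 519.8, 565 and 554 in the parent. SCP51 replicates 2 and 3 were below all arrays of SCP58 and the parent, whereas SCP51 replicate 1 was above all of them. The second showed the same order, with 354, 169.5 and 205 in SCP51, 305, 311 and 239.8 in SCP58 and 269, 318 and 321 in the parent. The third PLAUR probe set lay between 74.0 and 94.2 on all 9 arrays, with SCP51 replicate 1 again the highest. This is a low signal, at the level of the leukocyte marker CD3E (71.9 to 90.8).

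With all arrays PLAUR was not called. SCP51 stood at -0.42 ± 0.23 from SCP58 (95% interval -0.95 to 0.12; adjusted p = 0.348) and at -0.42 ± 0.23 from the parent (95% interval -0.95 to 0.11; adjusted p = 0.345). SCP58 and the parent differed by -0.0055 ± 0.23 (95% interval -0.54 to 0.53; adjusted p = 1). Without SCP51 replicate 1, PLAUR was lower in SCP51 than in SCP58, at -0.72 ± 0.12 (adjusted p = 0.0111), and lower than in the parent, at -0.72 ± 0.12 (adjusted p = 0.0136), with 2 SCP51 arrays left. On the second probe set the differences without that array were -0.61 and -0.70 (adjusted p = 0.0749 and 0.0686 over every probe set), and on the third they were -0.03 and -0.09 (adjusted p = 0.914 and 0.74). That array also stood apart over all genes, and its part in the PLAUR values was not tested beyond leaving it out.

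SERPINE2, the protease nexin-1 gene, had a signal of 965, 1284 and 1242 in SCP51 on its first probe set, 919, 970.3 and 863 in SCP58, and 1029, 1103 and 1082 in the parent. SCP51 replicates 2 and 3 were the 2 highest arrays, SCP58 lay below the parent on all arrays, and SCP51 replicate 1 lay inside the range of SCP58. SCP51 stood at 0.33 ± 0.13 from SCP58 (95% interval 0.04 to 0.63; adjusted p = 0.182), at 0.11 ± 0.13 from the parent (adjusted p = 0.657), and SCP58 at -0.22 ± 0.13 from the parent (adjusted p = 0.75). Without SCP51 replicate 1, SERPINE2 was higher in SCP51 than in SCP58, at 0.46 ± 0.10 (adjusted p = 0.0234), and SCP51 stood at 0.24 ± 0.10 from the parent (adjusted p = 0.193). Without SCP51 replicate 2 the difference from the parent was 0.032 (adjusted p = 0.924). The second SERPINE2 probe set was close to the array median and lay above it on 6 arrays. It read 30.2, 65.8 and 71.0 in SCP51, 37.1, 52.5 and 38.0 in SCP58 and 69.9, 61.6 and 51.4 in the parent, with SCP51 replicate 1 the lowest of all. Without that array it stood at 0.70 ± 0.19 between SCP51 and SCP58 (adjusted p = 0.0681 over every probe set).

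SERPINB5, the maspin gene, was highest in SCP58. On its first probe set the signal was 516, 533 and 548 in SCP51, 749, 705 and 778 in SCP58 and 447, 469 and 579.9 in the parent. Every SCP58 array lay above every other array, and SCP51 lay within the range of the parent. SCP51 stood at -0.48 ± 0.13 from SCP58 (95% interval -0.77 to -0.19; adjusted p = 0.074) and at 0.10 ± 0.13 from the parent (adjusted p = 0.669). SCP58 stood at 0.59 ± 0.13 from the parent (95% interval 0.30 to 0.88; adjusted p = 0.216). None passed, and SCP51 replicate 1 made little difference here, with -0.46 (adjusted p = 0.0737) between SCP51 and SCP58 and 0.13 (adjusted p = 0.631) between SCP51 and the parent without it. The second SERPINB5 probe set lay below the array median on all 9 arrays, at 16.7 to 21.9, and was not tested.

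**Figure D2:**
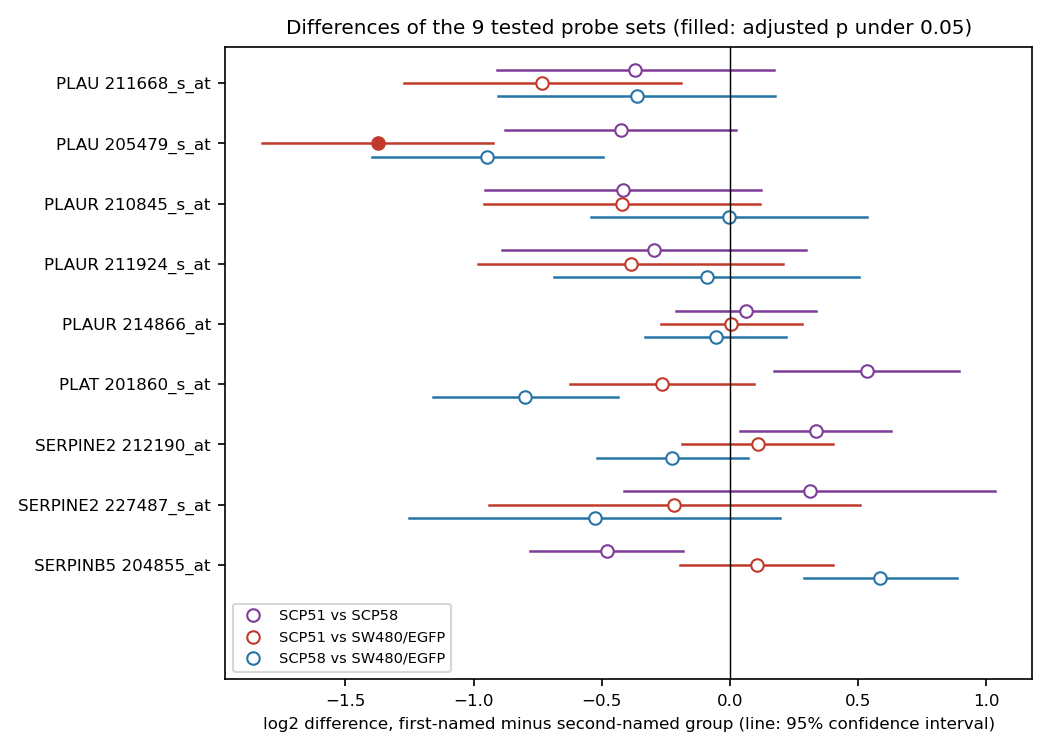
Log2 differences (x axis, first-named minus second-named group) of the 9 tested probe sets (y axis) in the 3 comparisons, from the limma fit over every probe set. Points are estimates and lines 95% confidence intervals, and a filled point has an adjusted p under 0.05. The 1 filled point is the second PLAU probe set in SCP51 against SW480/EGFP, at -1.37.

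As a set, the 5 genes held 0 calls in each comparison by limma over 13586 genes. Of all genes, 4.09% were called between SCP51 and SCP58, 2.96% between SCP51 and the parent and 0.14% between SCP58 and the parent. At an unadjusted p under 0.05, 3, 1 and 2 of the 5 genes passed in the same order of comparisons, where 21.3%, 19.6% and 8.6% of all genes did. The groups did not overlap for 2 of the 5 genes between SCP51 and SCP58, for 1 between SCP51 and the parent and for 4 between SCP58 and the parent, where 25.1%, 28.1% and 17% of all genes had groups that did not overlap. Over every probe set 1 of the 9 was called, lower in SCP51 than in the parent, where 1.9% of all probe sets were called. No member probe set was called between SCP51 and SCP58 or between SCP58 and the parent, where 3.35% and 0.134% were. The groups did not overlap for 3 of the 9 probe sets between SCP51 and SCP58, 2 between SCP51 and the parent and 5 between SCP58 and the parent, where 23.2%, 26.1% and 16.3% of all probe sets had such groups. Without SCP51 replicate 1, 2 of the 5 genes were called between SCP51 and SCP58 (8.86% of all genes), 1 between SCP51 and the parent (5.41%) and 1 between SCP58 and the parent (0.559%). By probe set the calls without that array were 2, 2 and 0 of the 9, where 6.87%, 3.44% and 0.342% of all probe sets were called. With arrays weighted by their fit, 2, 1 and 2 of the 5 genes were called, where 11.2%, 9.98% and 9.94% of all genes were. Averaging the probe sets of a gene gave 0, 1 and 0 calls among the 5, where 3%, 2.19% and 0.162% of all genes were called.

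**Figure D3:**
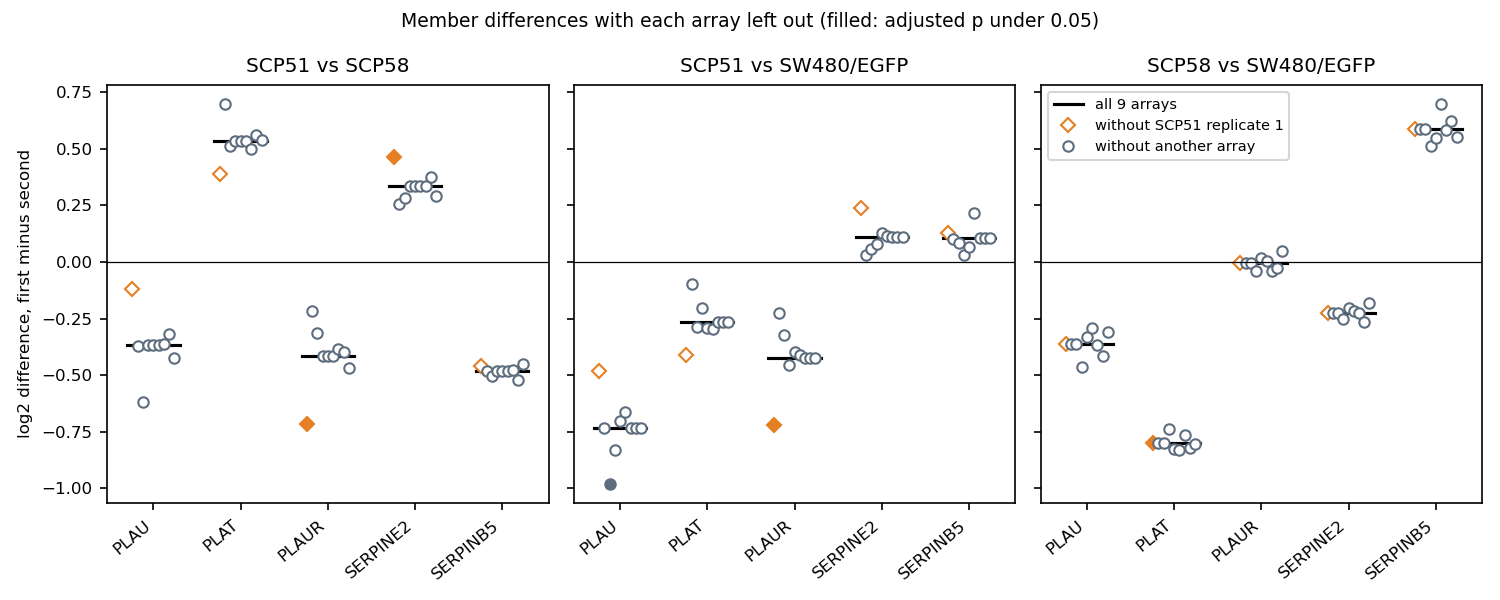
Log2 differences (y axis, first-named minus second-named group) of the 5 genes (x axis) with each of the 9 arrays left out in turn, for the 3 comparisons. Black lines mark the value with all arrays, diamonds the value without SCP51 replicate 1, and filled points an adjusted p under 0.05. PLAUR against both other groups and SERPINE2 between SCP51 and SCP58 are filled only without SCP51 replicate 1, as is PLAT between SCP58 and the parent, and PLAU against the parent is filled only without SCP51 replicate 3.

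Among themselves the genes did not move as 1 block. Over the 9 arrays, PLAT and SERPINB5 ran in opposite directions (r = -0.87, also without SCP51 replicate 1), as did PLAUR and SERPINE2 (r = -0.76, or -0.75 without that array). PLAU and PLAUR had r = 0.09, and 0.62 without SCP51 replicate 1. PLAU and PLAT had r = 0.10, and 0.66 without it. These are descriptions over arrays that share their groups. The genes whose log2 values ran most like a member's were OCIAD2, CDK7 and CUL9 for PLAU (r = 0.98, 0.97 and 0.97), and GDPD1, GATA6 and C16orf74 for PLAUR (r = 0.98, 0.96 and 0.96). They were ID3, GON7 and ACAT1 for PLAT (r = 0.93, 0.90 and 0.89), ARSA, SERP1 and L3HYPDH for SERPINE2 (r = 0.97, 0.96 and 0.96), and SLC35D1, SEC22A and IFIT2 for SERPINB5 (r = 0.95, 0.94 and 0.93). Of these 15 genes, IFIT2, an interferon-induced gene, was called, at -1.90 in SCP51 against SCP58 (adjusted p = 0.0129).

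The wider plasminogen system was described with 5 lists of 88 symbols, of which 82 had a probe set with that symbol alone and 68 were tested. The lists were chosen with earlier results of these data known, so that shares of calls among them describe the lists and test nothing about the system. Of the 68, 4 were called higher and 2 lower in SCP51 than in the parent, or 8.82%, where 2.96% of all genes were. Between SCP51 and SCP58, 1 was called, higher in SCP51 (1.47%, where 4.09% of all genes were), and between SCP58 and the parent none was, by limma (0.14% of all genes). The median difference of SCP51 from the parent was -0.05 over the 68 genes and -0.10 over all genes.

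Of 18 tested genes that produce, bind, inhibit or clear plasminogen and its activators, 2 were called, both higher in SCP51 when set against the parent. SERPINI1 encodes neuroserpin, an inhibitor of tissue-type plasminogen activator. Its signal was 146, 125 and 139.8 in SCP51, 107, 82.6 and 105 in SCP58 and 55.0, 66.8 and 66.9 in the parent. The 3 groups did not overlap, SCP51 being highest. All these signals were low. Those of the parent lay near the array medians of 41.2 to 44.3. Those of SCP51 were at the level of the fibroblast marker COL1A1 (126 to 172). SERPINI1 was 2.18-fold higher in SCP51 than in the parent, at 1.13 ± 0.14 (adjusted p = 0.00585), and stayed called in every alternative run, with adjusted p from 0.00264 to 0.0331. SCP51 stood at 0.49 ± 0.14 from SCP58 (adjusted p = 0.0896) and SCP58 at 0.64 ± 0.14 from the parent (adjusted p = 0.23).

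ANXA2 encodes annexin A2, which with S100A10 binds plasminogen and tissue-type activator at the cell surface. Its signal was 8099, 8292 and 8124 in SCP51, 7666, 7341 and 7460.1 in SCP58 and 7137, 6746 and 6875 in the parent. It was 1.18-fold higher in SCP51 than in the parent, a small shift of 0.24 ± 0.04 (adjusted p = 0.0183), and without an intensity trend in the variances the adjusted p was 0.188. The call was also lost without SCP51 replicate 2 (0.0714) or parent replicates 1, 2 or 3 (0.0542, 0.0822 and 0.0963), and in 10 of 22 alternatives in all. Over these alternatives, which include other ANXA2 probe sets, the difference went down to 0.017 and the adjusted p up to 0.98. With each array left out in turn the difference stayed between 0.22 and 0.26. ENO1, the brightest gene of this list beside ANXA2 and a surface receptor of plasminogen besides its part in glycolysis, stood at -0.09 ± 0.08 (adjusted p = 0.553).

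Of 13 tested substrates of the activators and targets of plasmin, with the receptors of those factors, 2 were called, both higher in SCP51 than in the parent. PDGFC encodes a growth factor whose latent form is cut by tissue-type plasminogen activator. Its signal was 1308, 2319 and 1852 in SCP51, 889.5, 908 and 1229 in SCP58 and 666, 606 and 639 in the parent. No 2 groups overlapped, and PDGFC was 2.79-fold higher in SCP51 than in the parent, at 1.48 ± 0.21 (adjusted p = 0.0105). Its second probe set gave 1.98, and the call was lost without parent replicates 2 or 3 (adjusted p = 0.0509 and 0.0518). SCP51 stood at 0.83 ± 0.21 from SCP58 (adjusted p = 0.0669).

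MET encodes the receptor of hepatocyte growth factor and is itself no substrate of the activators. Its signal was 1061, 1252 and 1072 in SCP51, 927, 712 and 967 in SCP58 and 698, 663 and 681 in the parent, so that SCP51 was highest and the parent lowest on all arrays. MET was 1.65-fold higher in SCP51 than in the parent, at 0.73 ± 0.14 (adjusted p = 0.0336). The call was lost without SCP51 replicates 2 or 3 (0.12 and 0.0506) or parent replicates 1, 2 or 3 (0.107, 0.115 and 0.124), and in 11 of 22 alternatives in all. Over these alternatives, which include other MET probe sets, the MET difference went down to 0.46 and the adjusted p up to 0.455. HGF, the gene of its ligand, had a signal of 33.8 to 48.4 over the 9 arrays, close to the array medians, and was not called. SPINT2, the brightest gene of this list, encodes an inhibitor of the proteases that activate that ligand and stood at 0.06 ± 0.10 in SCP51 against the parent (adjusted p = 0.758).

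All 22 transcription factors known to act on the promoters of PLAU or PLAUR were tested, and 2 were called, both lower in SCP51 than in the parent. KLF4 encodes a zinc finger factor of differentiating gut epithelium. Its signal was 162, 119.5 and 125 in SCP51, 187, 215 and 198 in SCP58 and 257, 576 and 305 in the parent, again with 3 groups that did not overlap. It stood at -1.40 ± 0.28 (adjusted p = 0.0373). The call was lost without SCP51 replicates 2 or 3 (0.127 and 0.0675), parent replicate 3 (0.0932) or SCP58 replicates 1, 2 or 3 (0.0599, 0.0676 and 0.0673), and its second probe set stood at -0.81 (adjusted p = 0.168). It was lost in 12 of 20 alternatives in all.

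TFAP2A encodes AP-2 alpha, a factor that binds the AP-2 motif searched above. Its signal was 282, 166 and 194 in SCP51, 325, 305 and 303 in SCP58 and 397, 443 and 438 in the parent, and here too no 2 groups overlapped. It stood at -1.02 ± 0.19 in SCP51 against the parent (adjusted p = 0.0251). The call was lost after quantile normalization (0.084), without SCP51 replicates 2 or 3 (0.0734 and 0.056), without parent replicates 1, 2 or 3 (0.0789, 0.0993 and 0.108) or SCP58 replicate 2 (0.0531), and the second probe set stood at -0.08 (adjusted p = 0.921). It was lost in 11 of 20 alternatives in all. No member of the ETS, FOS, JUN or NF-kappaB genes on this list was called. The 2 brightest factors, CTNNB1 and TCF7L2, stood at 0.10 ± 0.11 and -0.17 ± 0.23.

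Of 11 tested membrane partners of the urokinase receptor, 1 was called, ITGB5, higher in SCP51 than in SCP58. It encodes the integrin beta 5 subunit, part of a vitronectin receptor, and vitronectin is also a ligand of the urokinase receptor. Its signal was 1926, 1888 and 1854 in SCP51, 1321, 1315 and 1568 in SCP58 and 1421, 1443 and 1458 in the parent. All SCP51 arrays lay above all others, while SCP58 and the parent overlapped. SCP51 stood at 0.44 ± 0.09 from SCP58 (adjusted p = 0.0403) and at 0.39 ± 0.09 from the parent (adjusted p = 0.0681). The call was lost without SCP51 replicates 2 or 3 (0.116 and 0.0669), parent replicates 1, 2 or 3 (0.0743, 0.0625 and 0.0871) or SCP58 replicates 1 or 2 (0.0914 and 0.156), and in 13 of 22 alternatives in all. Other ITGB5 probe sets stood at 1.14 (adjusted p = 0.0147), 1.11 (adjusted p = 0.272) and 0.19 (adjusted p = 0.606). ITGB1 and CAV1, the brightest partners, stood at 0.27 ± 0.09 and -0.22 ± 0.17 between SCP51 and SCP58 (adjusted p = 0.127 and 0.491).

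**Figure D4:**
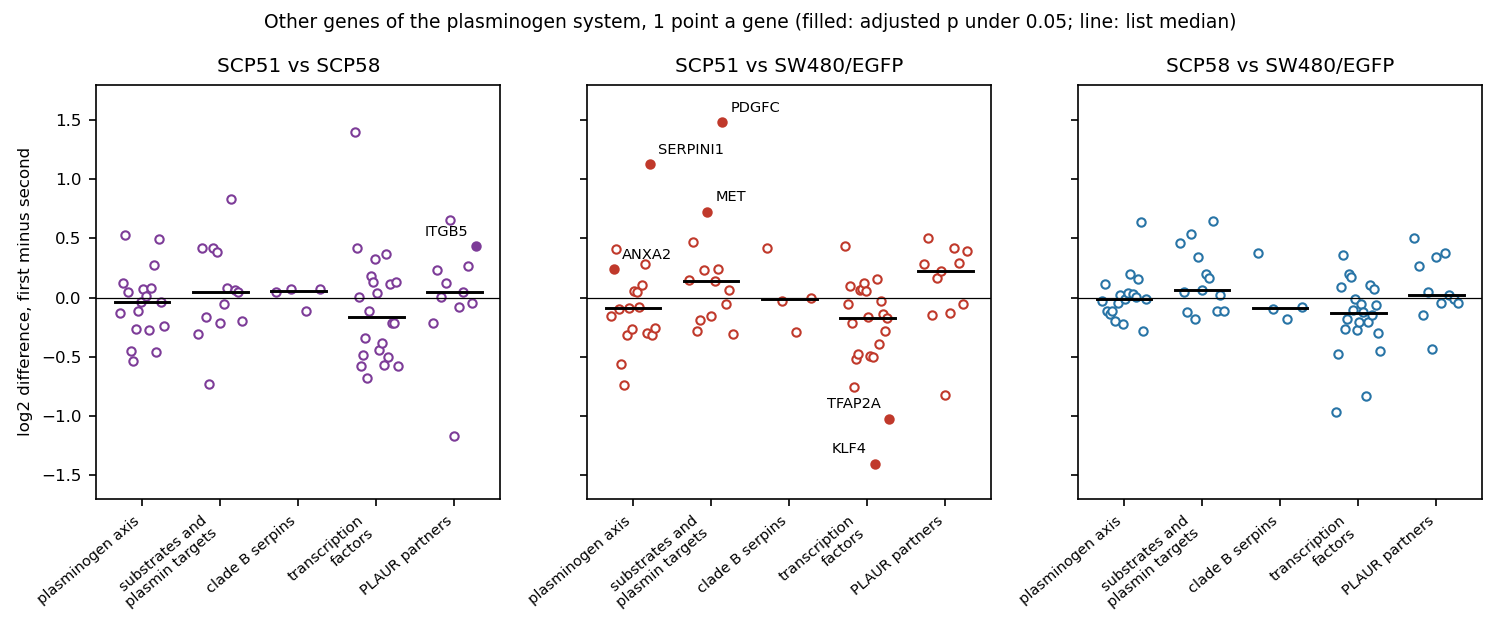
Log2 differences (y axis, first-named minus second-named group) of the 68 tested genes of the 5 lists (x axis) in the 3 comparisons. Points are genes, filled where the adjusted p was under 0.05, and black lines are list medians. In SCP51 against SW480/EGFP the named genes SERPINI1, ANXA2, PDGFC and MET lie above 0 and KLF4 and TFAP2A below it.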

How the data were processed

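Biotinylated cRNA was made from total RNA with an Affymetrix kit, per the labels' protocols. The authors deposited 1 linear signal intensity for each probe set, and the submitters' processing notes name GCOS 1.4. How it scaled the arrays and corrected background is not given in the sources used here. Medians of the arrays ran from 41.2 to 44.3, and the number of arrays limits the precision.

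There were 514 values under 1, of which 3 stood at 0, and these were raised to 1 before log2. No array was rescaled. After removal of 62 control probe sets, the filter on low signals left 29132. Gene symbols came from the platform's annotation, updated by Entrez identifier (99.9% matched) from RefSeq, assembly GRCh38.p14, which also gave the order of neighbouring genes. The brightest probe set by mean log2 stood for a gene. In limma 3.58.1 (R 4.3.3) all 9 arrays entered 1 fit with a mean for each group and an intensity trend. Each p is two-sided, adjusted by Benjamini-Hochberg over all genes (or probe sets) tested, and called under 0.05. SE, intervals and unadjusted p come from the same fit. The script was tested on simulated data. Differences are of the first-named group minus the second-named one.

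The text names the 5 members, the called and the 2 brightest genes of each list, the 3 genes most like each member by Pearson r, and the 3 nearest measured genes on each side of a member. HGF and CTSB were named after their values were seen. Members and lists were chosen with earlier results of these data known. Alternatives changed the filter, scaling, offset, variance model, probe set summary, arrays in the fit and the replicate block. Figures were drawn with matplotlib 3.10.9.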

Additional observations from a re-analysis of the deposited data

How the results depend on the processing

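Without SCP51 replicate 1, PLAUR was called in both SCP51 comparisons, SERPINE2 between SCP51 and SCP58 and PLAT between SCP58 and the parent; without SCP51 replicate 3, PLAU was called against the parent. Leaving out each array in turn, the differences ranged from -0.72 to -0.22 for PLAUR and from 0.26 to 0.46 for SERPINE2 between SCP51 and SCP58, and from -0.98 to -0.48 for PLAU and -0.72 to -0.22 for PLAUR in SCP51 against the parent. They ranged from -0.83 to -0.74 for PLAT in SCP58 against the parent. The second PLAU probe set ranged from -1.52 to -1.28 in SCP51 against the parent, an alternative chosen after seeing the data. That probe set lost its call without parent replicate 1 or 3 and kept it in the other 15 alternatives. The following differences were called in no alternative. Between SCP51 and SCP58 they ranged from -0.62 to -0.12 for PLAU, 0.39 to 0.70 for PLAT and -0.52 to -0.45 for SERPINB5. In SCP51 against the parent they ranged from -0.41 to -0.098 for PLAT, 0.032 to 0.24 for SERPINE2 and 0.03 to 0.22 for SERPINB5. In SCP58 against the parent PLAUR ranged from -0.041 to 0.048. Array weights gave PLAUR at -0.64 and SERPINE2 at 0.40 between SCP51 and SCP58, and PLAUR at -0.65 in SCP51 against the parent. They gave PLAT at -0.74 and SERPINB5 at 0.42 in SCP58 against the parent, all called, and SERPINB5 at -0.0085 in SCP51 against the parent; 11.2%, 9.98% and 9.94% of all genes were then called. In SCP51 against the parent averaging a gene's probe sets gave PLAU at -1.05, called, and SERPINE2 at -0.054. By single probe set, the second PLAU probe set stood at -1.37, the second of SERPINE2 at -0.22 and the third of PLAUR at 0.0053, the last at 0.062 between SCP51 and SCP58. Signs also turned for single probe sets or means of genes outside the 5: TFAP2A to 0.063 between SCP51 and SCP58, and in SCP58 against the parent ANXA2 to -0.036 (mean) and -0.48, MET to -0.073 and -0.077 and ITGB5 to 0.18.

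The labels do not say that replicate numbers pair cultures, and same-numbered arrays deviated together with r over 0.1 in 1 of 9 pairs (-0.22 to 0.13). With the replicate block 210, 167 and 6 genes were called for SCP51 and SCP58, then SCP51 and the parent, then SCP58 and the parent, against 555, 402 and 19 without it. The block changed no call of the 5 genes and left the second PLAU probe set called (adjusted p = 0.0405). In the same order array weights gave 1527, 1356 and 1351 calls, only the 6 arrays compared 134, 151 and 31, and every probe set by itself 976, 553 and 39. Leaving out each array in turn gave 137 (SCP58 replicate 2) to 1189 (SCP51 replicate 1), 122 (parent replicate 3) to 726 (SCP51 replicate 1), and 0 (parent replicate 1; 658 at an unadjusted p under 0.05) to 75 (SCP51 replicate 1). Quantile normalization moved the split of higher and lower calls from 201 and 354 to 319 and 302 between SCP51 and SCP58, and from 187 and 215 to 246 and 169 between SCP51 and the parent. Centring on the 75th percentile gave 312 and 298, and 247 and 183. Causes were not tested.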

Other observations

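Of 9 other clade B serpins, intracellular relatives of maspin, 4 were tested and none was called in any comparison by limma. SERPINB1, an inhibitor of neutrophil proteases, had a signal of 554, 418 and 448 in SCP51, 416, 497 and 459 in SCP58 and 269, 403 and 401 in the parent, so that both lines lay above the parent on all arrays. It stood at 0.42 ± 0.19 in SCP51 against the parent (adjusted p = 0.267) and at 0.38 ± 0.19 in SCP58 against the parent (adjusted p = 0.681). SERPINB9, the granzyme B inhibitor gene, stood at -0.0055 ± 0.17 and -0.08 ± 0.17 in the same comparisons.

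The 3 measured genes on each side of SERPINB5 on chromosome 18 include SERPINB3, SERPINB7 and SERPINB8. None of these 6 was called, and their differences of SCP58 from the parent lay between -0.18 and 0.16, against 0.59 for SERPINB5. Those of SCP51 from SCP58 lay between -0.46 and 0.08, a range whose lower end nearly reaches the -0.48 of SERPINB5. The nearest measured genes of PLAU (CHCHD1, ZSWIM8, CAMK2G, VCL, AP3M1 and ADK), of PLAUR (ZNF576, ZNF428, CADM4, IRGC, SMG9 and KCNN4) and of SERPINE2 (AP1S3, WDFY1, MRPL44, CUL3, IRS1 and RHBDD1) held no call in any comparison by limma either. Their differences of SCP51 from the parent ran from -1.06 to 0.41, -1.82 to -0.17 and -0.29 to 0.40. PLAU (-0.73), PLAUR (-0.42) and SERPINE2 (0.11), by first probe sets, lay inside. Those of SCP58 from the parent ran from -0.27 to 0.24, -0.20 to -0.08 and -0.61 to 0.78. There PLAU (-0.36) and PLAUR (-0.0055) lay outside and SERPINE2 (-0.22) inside. Between SCP51 and SCP58 PLAU and PLAUR lay inside, and SERPINE2 (0.33) above its highest neighbour (0.31).

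CTSB, the gene of cathepsin B, a lysosomal protease that can activate urokinase, had a signal of 1172, 1464 and 1402 in SCP51, 976, 880.1 and 932 in SCP58 and 933, 971 and 1124 in the parent. SCP51 lay above all other arrays, at 0.53 ± 0.12 from SCP58 (adjusted p = 0.0524) and 0.41 ± 0.12 from the parent (adjusted p = 0.124). Neither difference passed the threshold by limma. CTSB was named after its values were seen, and its values under the alternatives were not examined.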
